A study of Mus musculus with 4 samples.

Results

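The genes described here encode the proteins of the mitochondrial ribosome, named Mrpl for the large subunit and Mrps for the small one. They were chosen by name alone: every gene probe of the array whose accession belongs to a mouse gene symbol of the Mrpl or Mrps series. This gave 113 of 41174 gene probes and 77 of the 21050 genes tested. The gene table used for naming lists 78 protein-coding genes of this kind, of which Mrpl48 matched no probe, and 6 pseudogenes, which matched none either. Of the 77 genes, 50 encode large-subunit proteins and 26 small-subunit proteins. The last, Mrps36, carries the name but is now known as a component of the 2-oxoglutarate dehydrogenase complex.

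RNA was measured on 4 one-colour Agilent arrays in cells sorted from gastric tumours of K19-Wnt1/C2mE mice aged 30 weeks. All the mice carried the same transgenes, in which the keratin 19 promoter drives Wnt1 together with cyclooxygenase-2 and microsomal prostaglandin E synthase in gastric epithelium. Tumours were digested with enzymes, and cells negative for lineage markers (Lin-) were parted into Lin- CD44+ cells (2 arrays) and Lin- CD44- cells (2 arrays); no cells of normal stomach were analysed here. CD44 is a cell-surface receptor for hyaluronan that is often used to enrich tumour-initiating cells, and the series asks which transcripts distinguish cells with it from cells without it. The labels do not tie the replicates to different animals or say how many tumours were pooled, so the tests below measure only the spread between these arrays. The lineage markers are not named in the labels.

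The mitochondrial ribosome translates the few mRNAs encoded by mitochondrial DNA, all of them for subunits of the oxidative phosphorylation complexes. Its ribosomal RNAs are mitochondrial, but every one of its proteins in mammals is encoded in the nucleus, made in the cytosol and imported. Many of these proteins descend from bacterial ribosomal proteins and others were gained in mitochondria, and loss of single members impairs respiration in mice and people. In the gastric mucosa the acid-secreting parietal cells are the cells richest in mitochondria.

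All 4 arrays lay on 1 slide and carried 1 scan date. The 75th percentile of the background-subtracted signal was 244 and 493 on the CD44+ arrays, against 406 and 527 on the CD44- arrays, and 53.1% to 69.6% of gene spots were well above background. A level below is the log2 of this signal minus the log2 of the array's own 75th percentile, and a difference is the CD44+ mean minus the CD44- mean of levels. Cd44 itself had levels of 6.31 and 6.54 on the CD44+ arrays, against 4.26 and 5.11 on the CD44- arrays. This is a log2 difference of 1.74 ± 0.49 (SE), with groups that did not overlap and an adjusted p of 0.199 in limma. Across all genes, the CD44+ arrays correlated with each other at r = 0.965, and the CD44- arrays at r = 0.947. Epithelial markers were high on all 4 arrays, with a median level of 9.17 and 8.50 on the CD44+ arrays, against 8.99 and 7.49 on the CD44- arrays.

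As a family the mitochondrial ribosomal protein genes had slightly higher values in CD44+ cells, by an amount that no single gene showed beyond the error. Of the 77 genes, 76 had a log2 difference above 0 and 1, Mrpl24, had one below 0. The median difference was 0.42, with a lowest value of -0.01 and a highest of 0.83, and the middle of the list lay between 0.29 and 0.59 (quartiles). Over all 21050 genes tested the median was 0.16 and 60.6% of differences were above 0. Among the 17172 genes well above background on all 4 arrays, as all 77 members were, it was 0.24 and 68.6%. In sorted cells measured in bulk, fewer cells of a type and less RNA per cell cannot be told apart.

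None of the members passed the test. At an adjusted p under 0.05 in limma, 0 of 77 were called, where 84 of all genes (0.399%) were called, 5 of them (0.0238%) higher and 79 lower in CD44+ cells. No member reached an unadjusted p under 0.05 either. The smallest unadjusted p was 0.119 and the smallest adjusted p 0.671. The standard errors of the differences ran from 0.44 to 0.58 on the log2 scale. All 77 intervals at 95% covered 0, and all 77 also reached above 1, a doubling of the signal, so neither equality nor a doubling of any single gene can be told from these arrays. The highest upper bound was 2.01 on the log2 scale, or 4.03-fold.

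**Figure D1:**
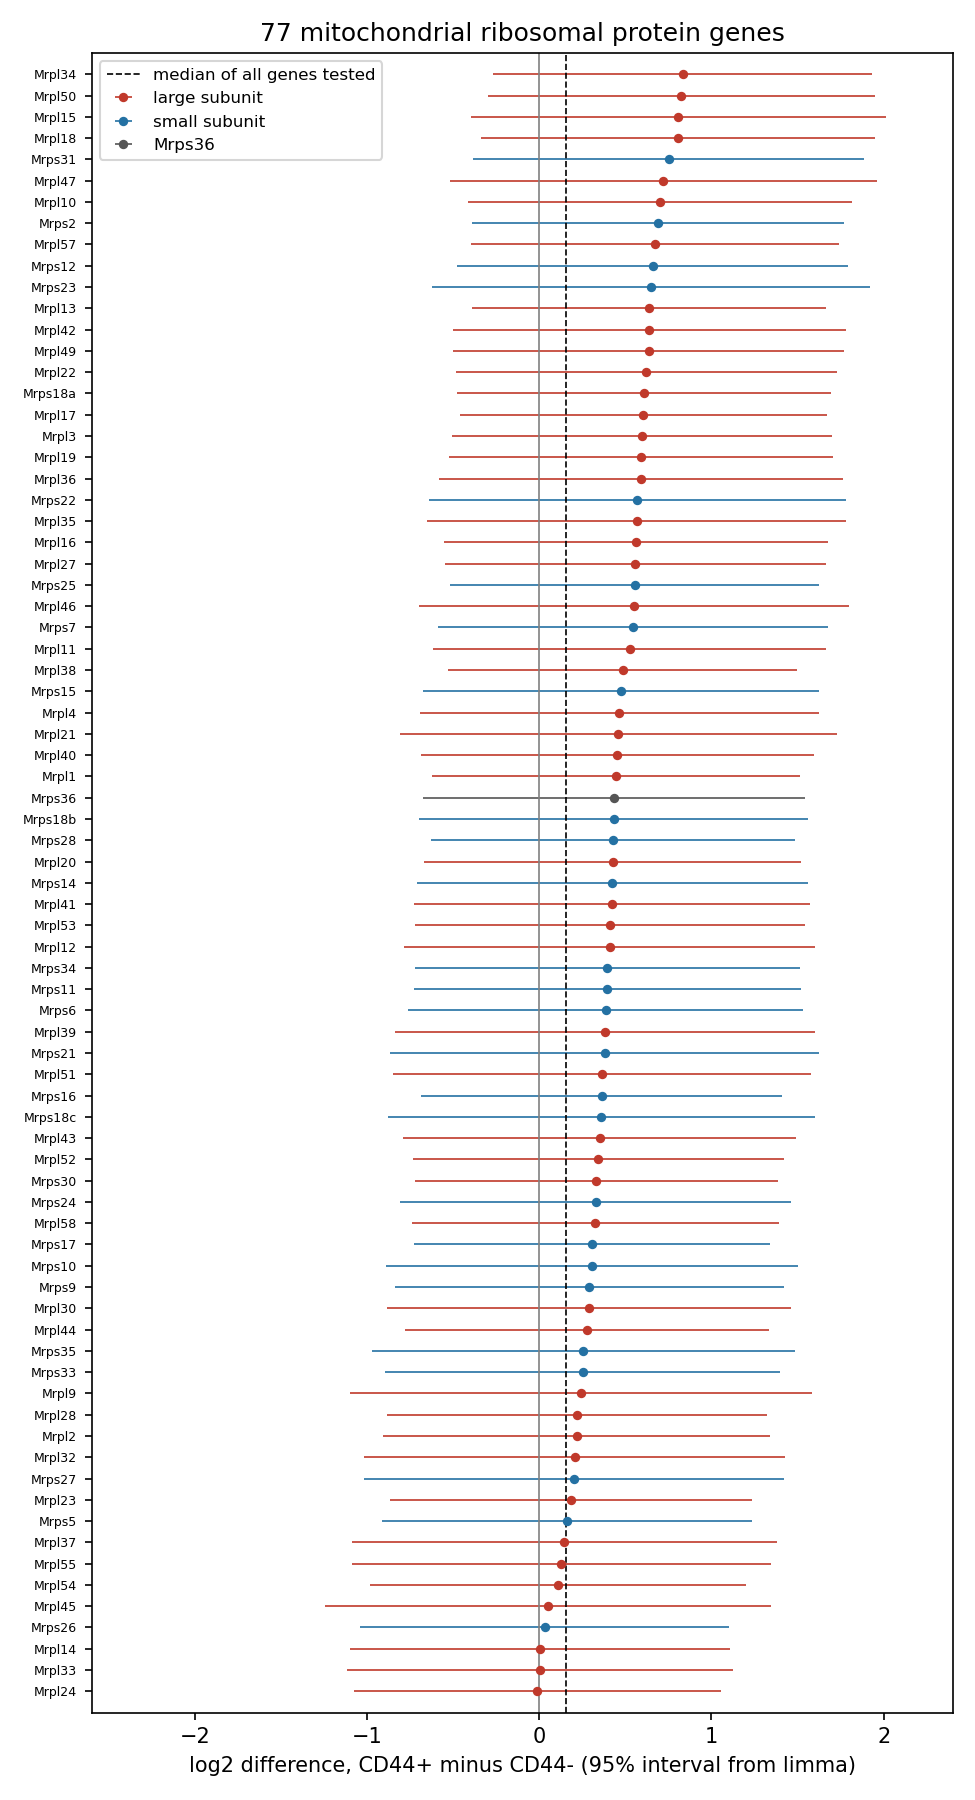
Log2 difference of each of the 77 genes, CD44+ minus CD44- (horizontal axis), with its 95% interval from limma, sorted by size; red points are large-subunit genes, blue points small-subunit genes and the grey point Mrps36. All but 1 of the points lie above 0, most lie right of the dashed line at the median of all genes tested (0.16), and every interval crosses 0.

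The groups overlapped for most members. In 20 of the 77 genes (26.0%) both CD44+ arrays were above both CD44- arrays, close to the 22.4% of all genes tested. In 0 of the 77 both were below, against 3624 of all 21050 genes. In 57 of the 77 the groups overlapped, against 12709 of all 21050. The difference between groups was larger than the gap between replicates in both groups for 8 members (10.4%, against 25.2% of all genes), namely Mrpl34, Mrpl18, Mrps2, Mrpl57, Mrpl13, Mrps18a, Mrps25 and Mrpl38. For 36 of the 77 members the difference was smaller than the gap in either group, against 7585 of all 21050 genes.

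The members moved together from array to array more than from group to group. Their median level was 3.38 and 3.93 on the CD44+ arrays, against 3.42 and 2.85 on the CD44- arrays. The first array of each group therefore stood almost level, and the second arrays stood apart. On the CD44- side the second array held the lowest value of 73 of the 77 genes, whereas it was lowest for 9091 of all 21050 genes (43.2%). Exceptions were Mrps33, Mrpl32, Mrpl45 and Mrpl33, which were lowest on the first CD44+ array. The second CD44+ array held the highest value of 61 members (79.2%, against 26.9% of all genes). Within the CD44+ group, the second array was above the first for 69 members, by a median of 0.46. Within the CD44- group it was below the first for all 77, by a median of 0.70, which is more than the median difference between the groups. Over all 21050 genes, the second CD44+ array was above the first for 11116, with a median gap of 0.06. The second CD44- array was below the first for 12373, with a median gap of -0.15.

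**Figure D2:**
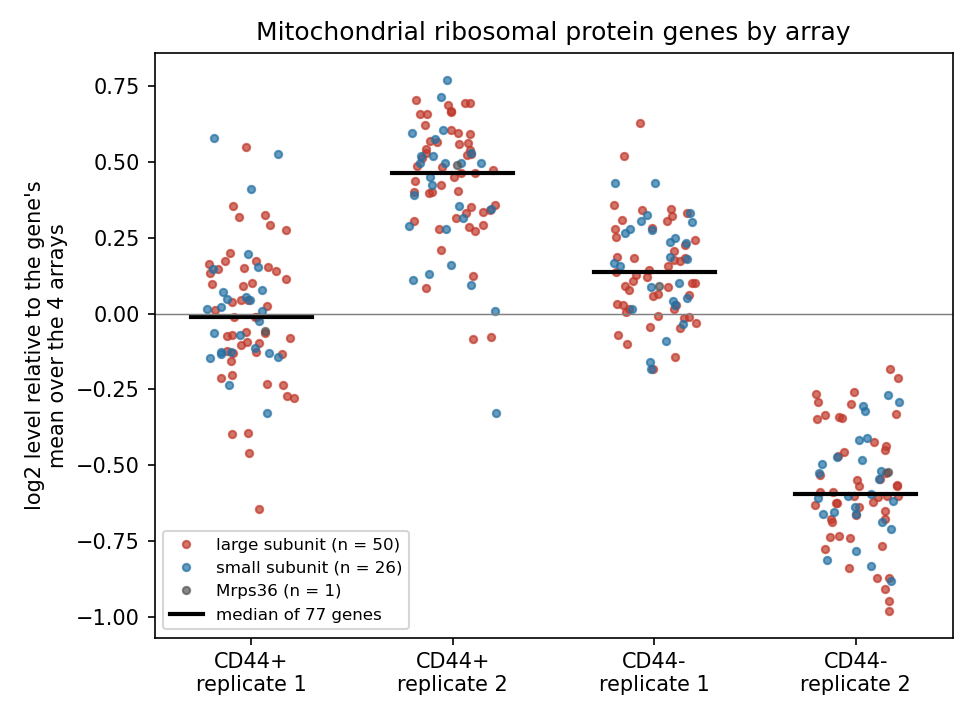
Level of each of the 77 genes on each array, on a log2 scale relative to the gene's own mean over the 4 arrays; red points are large-subunit genes, blue points small-subunit genes, and black bars the medians. The medians are -0.01 and 0.47 on the CD44+ arrays, against 0.14 and -0.60 on the CD44- arrays, and all 77 points of the second CD44- array lie below 0.

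The median difference depended on single arrays. Without the second CD44- array it was 0.07, with 50 of 77 members above 0, beside a median of 0.05 over all genes. Without the second CD44+ array it was 0.21, with 61 members above 0. It was 0.69 without the first CD44+ array and 0.79 without the first CD44- array. In each of these fits the lone array of a group was assumed to vary like those of the other group, and 0 members were called.

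Of the 8 largest differences with groups that did not overlap, 6 belonged to the large subunit, which holds 50 of the 77 genes. Mrpl34, the counterpart of a small bacterial large-subunit protein, had levels of 4.01 and 4.50 on the CD44+ arrays, against 3.74 and 3.11 on the CD44- arrays. Its log2 difference was 0.83 ± 0.48 (1.78-fold), with an adjusted p of 0.671 in limma. Mrpl50, a large-subunit protein with no bacterial relative, had 3.23 and 3.47 in CD44+ cells, against 2.95 and 2.10 in CD44- cells, a difference of 0.82 ± 0.49. In both genes the second CD44- array was the lowest of the 4. Mrpl15 had levels of 0.95 and 1.05 in CD44+ cells, against 0.77 and -0.38 in CD44- cells, and a difference of 0.81 ± 0.52. Mrpl18, which in bacteria binds the 5S RNA of the central protuberance, had 3.99 and 4.59 in CD44+ cells, against 3.85 and 3.11 in CD44- cells, a difference of 0.81 ± 0.50. The first arrays of both groups differ little in Mrpl15 and Mrpl18.

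Among the small-subunit genes, Mrps31 and Mrps2 differed most. Mrps31, a mitochondrial addition to the subunit, had levels of 4.03 and 4.49 on the CD44+ arrays, against 3.91 and 3.10 on the CD44- arrays, a difference of 0.75 ± 0.49. Mrps2, related to bacterial S2, had 2.32 and 1.85 in CD44+ cells, against 1.65 and 1.14 in CD44- cells, a difference of 0.69 ± 0.47. It is 1 of 8 members in which the first CD44+ array was the higher of its pair. Mrpl10 and Mrpl57 complete the 8 largest among genes whose groups did not overlap. Mrpl10 had 3.10 and 3.24 in CD44+ cells, against 2.88 and 2.05 in CD44- cells (0.70 ± 0.48). Mrpl57 had 5.92 and 6.30 in CD44+ cells, against 5.71 and 5.17 in CD44- cells (0.67 ± 0.46).

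At the other end, 3 genes showed almost the same mean in both groups. Mrpl24 had levels of 3.9995 and 4.18 on the CD44+ arrays, against 4.404 and 3.79 on the CD44- arrays, a difference of -0.01 ± 0.46. Mrpl14 had 5.36 and 5.77 in CD44+ cells, against 5.90 and 5.21 in CD44- cells, a difference of 0.01 ± 0.48. Mrpl33 had 6.003 and 6.80 in CD44+ cells, against 6.58 and 6.22 in CD44- cells, a difference of 0.01 ± 0.49. All 3 descend from bacterial large-subunit proteins, and in each of them the first CD44- array lay above the first CD44+ array. The interval of Mrpl24 ran from -1.08 to 1.06, so these genes are not shown to be equal in the groups.

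Nuclear genes for mitochondrial proteins are known to be served by ETS-family factors such as GABP, by NRF1 and by YY1, and many have CpG-rich promoters with SP1 sites. The RefSeq promoter windows (GRCm38.p6), from 250 bases before to 50 bases after the gene's start, were available for 68 of the 77 members. Motifs were searched on both strands as CCGGAAG (ETS), GCATGCGC (NRF1), AAGATGGCG (YY1), GGGCGG (SP1), CACGTG (E-box) and ACTACAA (part of the ZNF143 motif). The last was added after the windows of Mrpl34 and Mrpl24 had been read. These windows are shown for the member with the largest difference and the member with the lowest, in capitals where a motif lies.
Mrpl34, chr8:71464676-71464975, plus strand: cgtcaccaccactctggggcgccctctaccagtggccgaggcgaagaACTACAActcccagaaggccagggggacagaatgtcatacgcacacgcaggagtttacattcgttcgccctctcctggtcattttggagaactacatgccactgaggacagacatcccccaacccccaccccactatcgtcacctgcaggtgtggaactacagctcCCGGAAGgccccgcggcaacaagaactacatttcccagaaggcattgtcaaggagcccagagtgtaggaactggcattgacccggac
Mrpl24, chr3:87919294-87919593, plus strand: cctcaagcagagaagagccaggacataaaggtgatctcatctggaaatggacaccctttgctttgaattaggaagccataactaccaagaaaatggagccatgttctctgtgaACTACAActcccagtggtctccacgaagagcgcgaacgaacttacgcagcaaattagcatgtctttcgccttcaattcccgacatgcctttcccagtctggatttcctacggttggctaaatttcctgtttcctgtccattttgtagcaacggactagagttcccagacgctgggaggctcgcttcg
The Mrpl34 window holds an ETS motif that begins 37 bases before the start and an ACTACAA motif 203 bases before it. In the Mrpl24 window the ACTACAA motif, 137 bases before the start, was the only match.

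Counts are of genes with a motif in any of their windows. An ETS motif was found in 25 of the 68 members (36.8%), against 12.9% of 17492 protein-coding genes and 9.93% of all 27025 genes with a window. YY1 was found in 8 members (11.8%), against 2.14% of protein-coding and 1.64% of all genes. NRF1 was found in 8 (11.8%), against 3.94% and 3.05%. The SP1 motif was found in 48.5% of members, against 49.2% of protein-coding and 38.2% of all genes. For the E-box it was 7.35%, against 8.91% and 8.09%. ACTACAA was found in 5 members (7.35%), against 4.19% of protein-coding and 3.78% of all genes. The ETS and YY1 motifs can share up to 3 bases, and in 0 members did they do so. A match is a stretch of letters and not a shown binding site. The median log2 difference was 0.43 in members with an ETS motif and 0.41 in members without one. For NRF1 it was 0.41 with and 0.42 without, and for YY1 0.48 with and 0.42 without. For ACTACAA, the motif added after reading windows, it was 0.64 in the 5 members with it and 0.41 in those without, and for SP1 0.39 and 0.43.

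The most kinds of motif found in a member was 3, in 5 members. Of these, Mrpl42, a large-subunit protein gained in mitochondria, had the largest difference and is shown.
Mrpl42, chr10:95501900-95502199, minus strand: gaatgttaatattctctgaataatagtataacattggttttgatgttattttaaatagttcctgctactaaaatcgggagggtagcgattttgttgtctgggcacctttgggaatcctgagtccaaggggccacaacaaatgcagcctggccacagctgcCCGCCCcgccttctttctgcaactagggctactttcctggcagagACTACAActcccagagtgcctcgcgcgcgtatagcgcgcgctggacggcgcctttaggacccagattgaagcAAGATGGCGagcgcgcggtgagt
It holds ACTACAA 45 bases before the start, SP1 on the opposite strand 90 bases before it, and YY1 from base 27 after it. Mrpl42 had levels of 5.27 and 5.71 on the CD44+ arrays, against 5.27 and 4.44 on the CD44- arrays, a difference of 0.64 ± 0.50. The first arrays of the groups had the same value here.

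Read by subunit, the large one had a median log2 difference of 0.45 over its 50 genes, and the small one 0.39 over 26 genes. Genes higher without overlap numbered 14 (28.0%) in the large subunit and 6 (23.1%) in the small one. The share over all genes tested was 22.4%. By origin, the 31 large-subunit genes with bacterial relatives had a median of 0.52, and the 19 found only in mitochondria 0.38. In the small subunit the values were 0.39 for both the 17 genes of bacterial families and the 9 mitochondrial ones. These medians differ by less than the standard error of any single gene, and no test was made between them.

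The 3 proteins of the stalk, which recruits translation factors to the large subunit, had differences of 0.70 (Mrpl10), 0.52 (Mrpl11) and 0.41 (Mrpl12). Mrpl12, which carries the factor-binding tails, had levels of 4.88 and 5.45 on the CD44+ arrays, against 5.24 and 4.28 on the CD44- arrays. The groups overlapped. The 6 genes of the central protuberance had a median of 0.52, from 0.33 in Mrpl58 to 0.81 in Mrpl18. Outside these sites, Mrps30, a large-subunit protein despite its name, had levels of 2.80 and 3.04 in CD44+ cells, against 2.84 and 2.33 in CD44- cells.

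The 6 genes around the exit tunnel, through which the new protein leaves towards the inner membrane, spread more widely. Mrpl47, Mrpl22 and Mrpl17 had differences of 0.72, 0.62 and 0.60, whereas Mrpl23, Mrpl45 and Mrpl24 had 0.18, 0.05 and -0.01. Mrpl45, which anchors the ribosome to the inner membrane, had levels of 3.51 and 4.85 on the CD44+ arrays, against 4.36 and 3.90 on the CD44- arrays. Its CD44+ values lie on either side of its CD44- values, and its interval was the one that reached lowest (-1.24). Its second probe gave 0.76.

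Members with an enzymatic or decoding role are described next. Mrps12, the protein of the decoding centre, had levels of 3.33 and 4.21 on the CD44+ arrays, against 3.26 and 2.97 on the CD44- arrays, a difference of 0.66 ± 0.49 without overlap. Mrpl44, which has an RNase III-like fold, had 2.05 and 2.58 in CD44+ cells, against 2.17 and 1.91 in CD44- cells (0.28 ± 0.46), and its 3 probes gave 0.24 to 0.50. Mrpl58, a peptidyl-tRNA hydrolase that frees stalled chains, had 4.97 and 5.28 in CD44+ cells, against 5.07 and 4.53 in CD44- cells (0.33 ± 0.46). Mrps22, whose human counterpart is mutated in a mitochondrial cardiomyopathy, had 2.75 and 3.17 in CD44+ cells, against 2.94 and 1.84 in CD44- cells (0.57 ± 0.53). Only Mrps12 among these had separate groups.

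Of several further small-subunit genes, Mrps7, Mrps16 and Mrps34 lay near the middle of the family. Mrps27 and Mrps26 lay below its lower quartile. Mrps7, a protein of the subunit's head, had levels of 2.73 and 2.45 on the CD44+ arrays, against 2.49 and 1.61 on the CD44- arrays (0.54 ± 0.49). Mrps16, whose human counterpart is mutated in a respiratory chain disorder, had 5.89 and 6.15 in CD44+ cells, against 5.89 and 5.42 in CD44- cells (0.36 ± 0.46). Mrps34, needed for stability of the small subunit in mice, had 5.43 and 6.08 in CD44+ cells, against 5.64 and 5.07 in CD44- cells (0.39 ± 0.49). All 3 overlapped between the groups. Mrps27, an RNA-binding protein of the pentatricopeptide repeat family, had -0.32 and -1.17 in CD44+ cells, against -0.52 and -1.37 in CD44- cells (0.20 ± 0.53), so that its first arrays were the higher ones in both groups. Mrps26 had the smallest difference of the subunit, at 0.03 ± 0.46.

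Of the 6 large-subunit genes whose difference exceeded both replicate gaps, Mrpl13 and Mrpl38 had the smallest gaps between replicates in both groups. Mrpl13 had levels of 4.72 and 5.01 on the CD44+ arrays, against 4.36 and 4.09 on the CD44- arrays (0.64 ± 0.45). Mrpl38, gained in mitochondria and placed at the central protuberance, had 3.02 and 3.19 in CD44+ cells, against 2.72 and 2.52 in CD44- cells (0.49 ± 0.44). In both the replicates lay closer together than in most members, and neither passed the test. Mrpl9 had the least precise value of the family, with -0.57 and -0.97 in CD44+ cells, against -0.26 and -1.76 in CD44- cells, and a difference of 0.24 ± 0.58.

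The S18 family has 3 copies in mammals, and their proteins sit in different places of the ribosome. Mrps18a, part of the large subunit, had levels of 3.38 and 3.89 on the CD44+ arrays, against 3.29 and 2.77 on the CD44- arrays, a difference of 0.61 ± 0.47. Mrps18b had -1.09 and -0.68 in CD44+ cells, against -0.91 and -1.72 in CD44- cells (0.43 ± 0.49). Mrps18c had 3.64 and 4.47 in CD44+ cells, against 4.17 and 3.21 in CD44- cells (0.36 ± 0.54). The groups were separate in Mrps18a and overlapped in the other two. Mrps36 had 2.75 and 3.30 in CD44+ cells, against 2.90 and 2.29 in CD44- cells, a difference of 0.43 ± 0.48, close to the family's median although its protein is no part of the ribosome.

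The probes with the brightest signal in the family belonged to Mrpl33, Mrpl23 and Mrpl28, with small differences of 0.01, 0.18 and 0.22. Processed signals of the members ran from 114 to 55053, and no spot of the arrays was saturated. Several probes were present for 28 genes. In 26 of them all probes had the same sign, and the range between probes of a gene had a median of 0.18. In Mrpl17 the reported probe gave 0.60 and a dim one -0.54, which on 1 of the 2 CD44+ arrays was well above background. In Mrps25 the probes gave 0.55 and -0.29.

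Some members share their control region with a neighbour transcribed in the opposite direction. Of the members, 24 have a protein-coding neighbour on the other strand whose start lies within 1000 bases. Of these neighbours 21 were tested, and 15 of them had a difference above 0. Both counts include Mrpl46 and Mrps11, each the neighbour of the other. Over all genes tested 60.6% of differences were above 0, and 68.6% over genes well above background on all 4 arrays. In 1 case both genes are members: the starts of Mrpl46 and Mrps11 lie 42 bases apart, and their windows are shown because they cover the same stretch from either side.
Mrpl46, chr7:78783040-78783339, minus strand: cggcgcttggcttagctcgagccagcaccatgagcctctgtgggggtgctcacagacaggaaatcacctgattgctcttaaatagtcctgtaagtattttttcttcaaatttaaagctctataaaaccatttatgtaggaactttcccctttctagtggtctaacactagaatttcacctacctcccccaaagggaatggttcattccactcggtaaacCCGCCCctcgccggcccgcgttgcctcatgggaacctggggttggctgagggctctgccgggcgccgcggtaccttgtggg
Mrps11, chr7:78782881-78783180, plus strand: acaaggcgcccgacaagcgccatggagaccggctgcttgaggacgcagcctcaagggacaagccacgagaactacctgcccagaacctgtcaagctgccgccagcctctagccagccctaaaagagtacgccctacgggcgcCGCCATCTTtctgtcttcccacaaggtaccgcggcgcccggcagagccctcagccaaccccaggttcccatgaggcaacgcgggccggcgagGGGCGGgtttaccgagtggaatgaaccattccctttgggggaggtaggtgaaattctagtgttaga
The GGGCGG motif between the starts is 1 site seen from both genes, 31 bases before the start of Mrpl46 and 16 bases before that of Mrps11. Mrpl46 had levels of 1.81 and 2.06 on the CD44+ arrays, against 2.02 and 0.76 on the CD44- arrays, a difference of 0.55 ± 0.54. Mrps11 had -0.15 and 0.50 in CD44+ cells, against 0.08 and -0.52 in CD44- cells, a difference of 0.39 ± 0.49. In both genes the arrays ran in the same order at the ends, highest on the second CD44+ and lowest on the second CD44- array. This is usual in the family, where 61 of 77 members were highest on the former and 73 lowest on the latter.

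Other members and their neighbours had close values in some pairs and distant ones in others. Mrps12 lies head to head with Sars2, the mitochondrial seryl-tRNA synthetase, whose difference was 0.17, against 0.66 in Mrps12. The Mrps12 window is shown for its ETS motif, which begins 1 base after the start.
Mrps12, chr7:28741772-28742071, minus strand: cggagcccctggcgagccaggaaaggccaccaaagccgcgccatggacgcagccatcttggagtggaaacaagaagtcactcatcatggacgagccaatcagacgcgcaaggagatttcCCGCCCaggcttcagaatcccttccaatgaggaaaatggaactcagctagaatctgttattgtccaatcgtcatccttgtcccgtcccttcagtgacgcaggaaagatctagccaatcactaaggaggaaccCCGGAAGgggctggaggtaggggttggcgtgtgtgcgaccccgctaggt
Mrpl57 had 0.67 and its neighbour Ska3, a kinetochore gene, 1.97. Ska3 had levels of -1.26 and -1.81 on the CD44+ arrays, against -3.43 and -3.59 on the CD44- arrays, with an adjusted p of 0.140 in limma. Mrpl51 had 0.36 and its neighbour Ncapd2, a condensin gene, 1.59, with an adjusted p of 0.197. These are the pairs with the widest distance in favour of the neighbour, and in both the neighbour is a gene of mitosis. Mrpl18 and Tcp1, a subunit of the cytosolic chaperonin, had 0.81 and 0.71.

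The other parts of the mitochondrial translation machinery had lower median differences than the Mrpl and Mrps genes, which were not tested against each other, and 0 of these genes were called. The 5 proteins of the mitochondrial ribosome with other names had a median of 0.18, all 5 above 0, with 0.35 in Aurkaip1 and 0.32 in Chchd1. The 22 assembly factors had a median of 0.22, with 19 above 0. Among them were Gtpbp10, a GTPase of large-subunit maturation, at 0.89 ± 0.55, and Noa1 at 0.66 ± 0.47. The 14 translation factors had a median of 0.18, with 10 above 0, from Guf1 at -0.56 ± 0.51 to Gfm1, the elongation factor G, at 0.51 ± 0.55. Levels of Gtpbp10 lay far below the 75th percentile on all 4 arrays, at -3.39 and -3.91 in CD44+ cells, against -3.91 and -5.18 in CD44- cells.

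The tRNA synthetases of mitochondria had a median of 0.16 over 19 genes, 17 of them above 0. The exceptions were Vars2, the valyl-tRNA synthetase, at -0.49 ± 0.48, and Lars2, the leucyl-tRNA synthetase, which had the largest difference of the list. Levels of Lars2 were 6.84 and 7.56 on the CD44+ arrays, against 8.49 and 8.67 on the CD44- arrays. The log2 difference of -1.38 ± 0.47 had an unadjusted p of 0.0193 and an adjusted p of 0.302 in limma, and the groups did not overlap. Yars2, the tyrosyl-tRNA synthetase, had 0.79 ± 0.49, with levels of 2.07 and 1.87 in CD44+ cells, against 1.61 and 0.75 in CD44- cells.

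Genes that copy or transcribe mitochondrial DNA had a median of 0.21 over 14 genes, 12 of them above 0. Mgme1, a nuclease of mitochondrial DNA replication, had levels of 0.37 and 0.43 in CD44+ cells, against -0.30 and -0.31 in CD44- cells, a difference of 0.70 ± 0.44 without overlap. Tfb2m, a mitochondrial transcription factor, had 0.56 ± 0.46. The 10 regulators of mitochondrial biogenesis had a median of 0.06, with 6 above 0. Pprc1 had 0.53 ± 0.46 and Ppargc1b, of the same coactivator family, -0.54 ± 0.49.

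Beside the ribosome lie its products' partners. The 73 nuclear genes for oxidative phosphorylation subunits had a median difference of 0.32, with 71 above 0 and 0 called. Their replicates parted in the same way, with the second CD44- array lowest in 71 of 73 and below the first by a median of 0.83. Ndufs4, of complex I, had levels of 5.52 and 6.04 on the CD44+ arrays, against 5.61 and 4.37 on the CD44- arrays (0.78 ± 0.55). The 81 genes of the cytosolic ribosome tested had a median of 0.18, with 67 above 0, 0 called and the second CD44- array lowest in 69. Their signed within-group gaps (second minus first array) had medians of 0.00 in CD44+ cells and -0.35 in CD44- cells. The gap was above 0 for 42 of the 81 in CD44+ cells and below 0 for all 81 in CD44- cells. The median of 0.00 therefore reflects gaps of opposite sign and is not their size.

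**Figure D3:**
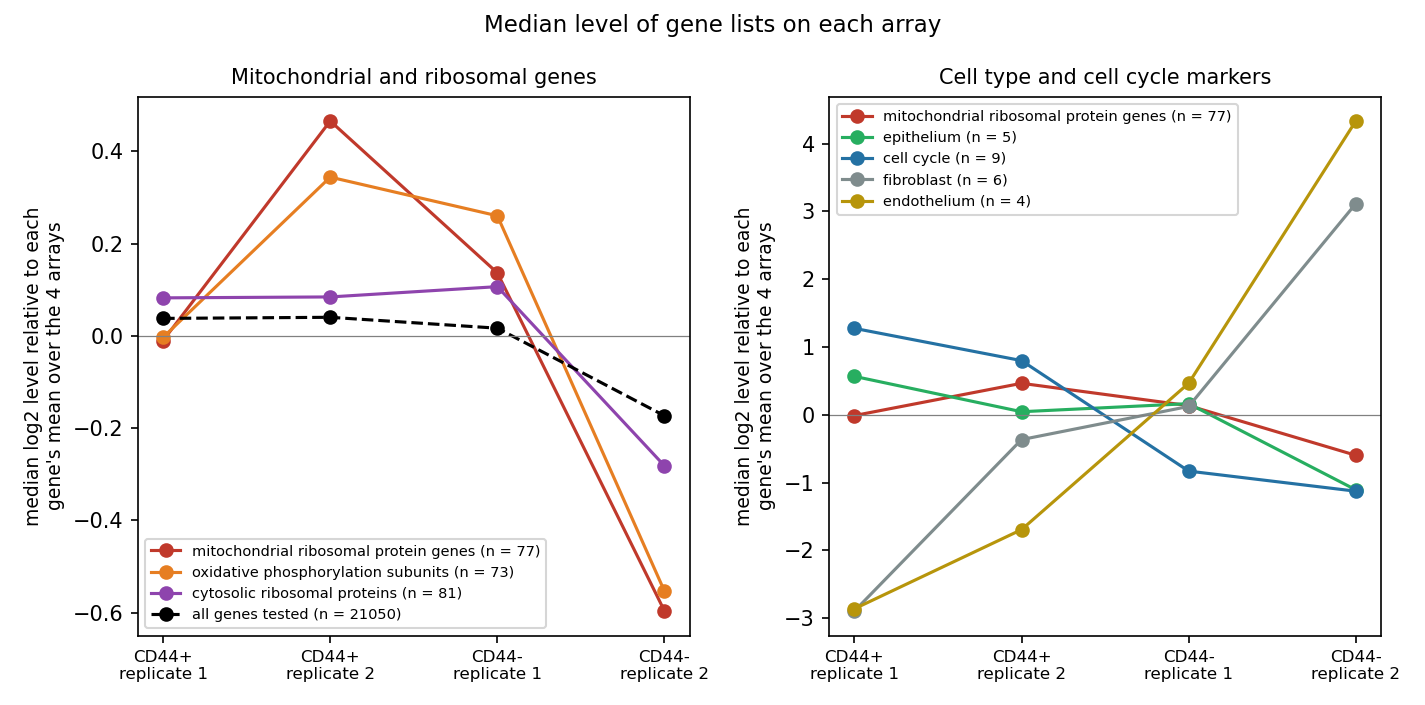
Median log2 level of gene lists on each array, relative to each gene's mean over the 4 arrays. On the left, mitochondrial ribosomal protein genes and oxidative phosphorylation subunits are both highest on the second CD44+ array (0.47 and 0.34) and lowest on the second CD44- array (-0.60 and -0.55), whereas cytosolic ribosomal proteins span less. On the right, fibroblast and endothelial markers are highest, and epithelial markers lowest, on the second CD44- array.

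The array on which the members were lowest also differed in its cell type markers. It is the second of the CD44- group. All 6 fibroblast markers were highest on it, with a median level of 0.00 and 2.23 on the CD44+ arrays, against 2.66 and 5.76 on the CD44- arrays. Of 6 endothelial markers 4 were tested, and all 4 were highest on it, with medians of -4.04 and -2.21 on the CD44+ arrays, against -0.08 and 4.05 on the CD44- arrays. The value of -4.04 lies below the lowest level well above background on that array (-3.41). Cdh5 and Emcn, and Pdgfra among the fibroblast markers, were well above background on only 1 CD44+ array. They were tested through the CD44- arrays, so their CD44+ levels are uncertain. All 5 epithelial markers were lowest on the second CD44- array. Krt19, whose promoter drives the transgenes, had levels of 9.17 and 8.50 in CD44+ cells, against 9.21 and 7.49 in CD44- cells. The part of these markers in the members' difference was not tested.

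Of the other marker lists, 3 separated the groups in every gene tested. Enteroendocrine and squamous markers were lower on both CD44+ arrays than on both CD44- arrays in all 6 of 6 genes each. Their median differences were -7.00 and -6.20, and 5 and 2 of them were called. In each list 4 of the 6 genes were well above background on all 4 arrays. Neurod1 and Krtdap, the latter called, were so on 0 CD44+ arrays, and Trp63 and Ghrl, the latter called, on 1. These genes were tested through the CD44- arrays, so the sizes of their differences are uncertain. The 9 cell cycle markers tested were higher on both CD44+ arrays, with a median difference of 2.02 and 0 called. The smooth muscle markers (5 tested, median difference -1.35) were all highest on the second CD44- array, as were 3 of 4 parietal (-2.63) and 3 of 4 chief cell markers (-2.22). Of these, Kcne2 (parietal) was well above background on 0 CD44+ arrays, and Chia1 (chief) and Cnn1 (muscle) on 1. They too were tested through the CD44- arrays, so the sizes of their differences, and of these medians, are uncertain. The 6 leukocyte markers went both ways, from -1.74 to 3.81 with a median of -0.15, and 1 of them, Cd53, was called higher. Cd53 was well above background on 0 CD44- arrays and was tested through the CD44+ arrays only. Tyrobp, the lowest of the 6, and Laptm5 were well above background on 1 CD44+ array each and were tested through the CD44- arrays. The sizes of the differences of Cd53, Tyrobp and Laptm5 are therefore uncertain. The 5 mast cell markers tested had a median of 1.97, and 1 of them, Mcpt1, was called higher. Their part in the members' values was not tested either.

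**Figure D4:**
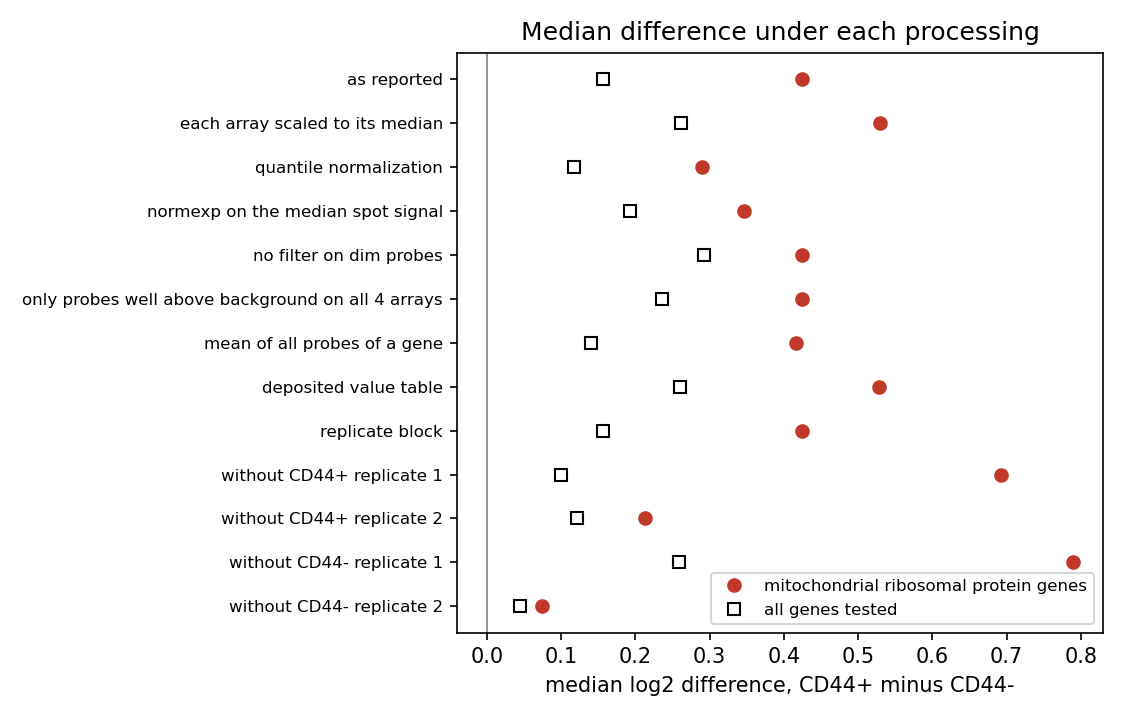
Median log2 difference, CD44+ minus CD44-, of the 77 mitochondrial ribosomal protein genes (red points) and of all genes tested (open squares) under each way of processing. The members' median is above that of all genes under every setting plotted, by 0.03 without the second CD44- array and by 0.59 without the first CD44+ array.

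How far the members stood above the rest depended on the processing. Their median lay above that of all genes by 0.27 as reported and when each array was scaled to its median, by 0.17 after quantile normalization, by 0.15 with normexp and by 0.13 without a filter on dim probes. After quantile normalization 69 members were above 0 and 8 below, and with normexp background correction 72 and 5. Of the 77 genes, 46 kept a difference above 0 under all 12 alternatives. The lowest adjusted p any member reached in them was 0.278, for Mrpl15 without the first CD44- array.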

How the data were processed

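RNA was measured in 2 samples of Lin- CD44+ and 2 of Lin- CD44- tumour cells, each on its own 1-colour array (Cy3, amplified RNA), per the labels' protocols. Per the file headers, scanning output came from Agilent Feature Extraction 10.1.1.1, and version 9.5 is listed per the submitters' processing notes. The processed signal deposited by the authors is a linear, background-subtracted intensity per the file headers, not scaled between arrays. The authors' value table holds a linear ratio: set against the scanner values of 10728 probes, it is the processed signal divided by 1 constant per array and by the median of the probe. How the array constants were chosen is unknown. Its columns have medians of 0.853 and 0.989 for the CD44+ arrays and 0.928 and 0.739 for the CD44- arrays. The deposited flags for outlier, saturated and well-above-background spots, scored 0 or 1 by the authors' software, were used as given.

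Control spots and 109 to 133 outlier spots per array were left out, spots of a probe were averaged, and log2 of the intensity minus the array's 75th percentile was analysed. Accessions were matched, versions removed, to mouse RefSeq gene entries, which named 24375 of 41174 probes. Because the array design uses another build, coordinates are given only for the RefSeq promoter windows (GRCm38.p6). A gene was represented by its brightest probe and tested if both arrays of a group had that probe well above background. Levels of different probes cannot be compared with each other. Groups were compared with limma 3.58.1 (lmFit, eBayes) in R 4.3.3 without covariates, on 2 residual degrees of freedom plus 6.02 from the variance model, with Benjamini-Hochberg adjustment over 21050 genes and a threshold of 0.05. Tests were two-sided, errors are standard errors of the fit, and the number of arrays limits the precision. The fit was tested on simulated data with changes far larger than the members' differences. That test does not bear on differences as small as theirs. Slide and scan date could not be fitted as blocks, since all arrays share them.

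The members and all lists were chosen with earlier results of these data known. Genes named are members called, up to 8 per direction with the largest difference without overlap, the 3 smallest differences, the 3 brightest probes, members whose probes differ in sign by more than 0.5, 11 members fixed by name, and of each other list the called genes or up to 2 with the smallest p. Of the marker lists only counts, medians and a few genes are given. Further members, probes and neighbours named were singled out after their values were seen. Alternatives changed the scaling, background correction, filter, probe rule and replicates, used the value table, or added the replicate number as a block.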

Additional observations from a re-analysis of the deposited data

How the results depend on the processing

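Under each of the 12 alternatives 0 mitochondrial ribosomal protein genes were called, and their median difference stayed above 0 and above that of all genes tested. Over all genes, the count called was 749 with each array scaled to its median, 748 in the authors' value table, 540 with normexp, 24 without a filter on dim probes and 6 after quantile normalization, against 84 as reported, and leaving out 1 array gave 2 to 1589. The split of these calls was 121 higher and 628 lower with median scaling, 98 and 442 with normexp, and 0 and 6 after quantile normalization, against 5 and 79. With the replicate number as a block, 1829 genes were called and 0 members. The numbers share a correlation of 0.347 in their deviations over only 2 pairs, which does not establish pairing. Mrpl24 was 0.0946 with median scaling and 0.0927 in the value table. After quantile normalization Mrpl33 was -0.21, Mrpl14 -0.23, Mrpl23 -0.0199 and Mrpl45 -0.13, and with normexp Mrpl33 was -0.07, Mrpl14 -0.0734 and Mrpl45 -0.0058. Leaving out 1 array at a time turned the sign of 10 genes taken by the naming rule: Mrpl24 (-0.32 to 0.29), Mrpl33 (-0.40 to 0.41), Mrpl14 (-0.34 to 0.35), Mrpl23 (-0.0636 to 0.43), Mrpl45 (-0.62 to 0.72), Mrps18c (-0.12 to 0.84), Mrpl28 (-0.14 to 0.58), Mrpl12 (-0.0742 to 0.89), Chchd1 (-0.34 to 0.97) and Gfm1 (-0.0903 to 1.102). Of members named outside that rule, Mrpl9, Mrpl32, Mrpl46, Mrpl51, Mrps26, Mrps27 and Mrps33 also had a value below 0 under at least 1 alternative, the lowest being -0.51 in Mrpl9. The cause was not tested. Cd44 passed with normexp (adjusted p 0.0289) and with the replicate block (adjusted p 0.0114). A block for slide or scan date was not run, since the arrays share both. Nor was a choice of members by a gene name column, which the scanner tables used here do not hold.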
